A study of Mus musculus with 4 samples.

Results

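The serpins are a family of proteins that share one fold, and most of them are irreversible inhibitors of serine proteases. A protease cuts the exposed reactive loop of an inhibitory serpin, the loop inserts into the body of the serpin, and the protease stays trapped in a dead complex. Some members do not inhibit proteases and act as chaperones or hormone carriers. The letter after "Serpin" in a mouse gene symbol names the clade. Clade A holds secreted plasma proteins such as the antitrypsins, clade B holds intracellular serpins that protect a cell from its own or incoming proteases, and clade E holds inhibitors of plasminogen activators. Clade H is the collagen chaperone Hsp47, and clade I is neuroserpin and its relative.

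The serpins described here are all array probes whose RefSeq accession belongs to a mouse gene with a symbol that starts with Serpin, except Serpinf1. Of 56605 probes on the array, 73 fulfilled this rule, and they stood for 61 of the 22911 genes named on it. RefSeq lists 68 such symbols, so 7 of them had no probe. The arrays compared 2 mouse ovarian cancer cell lines. ID8G is ID8, a line of ovarian surface epithelium that became malignant spontaneously in culture, made to express GFP. GO2 was derived from ID8G by 2 rounds of intraperitoneal injection into syngeneic mice, each followed by sorting of GFP-positive, CD45-negative cells from the omental tumors, and it was then kept in culture. The study gives a serum-containing medium with insulin, transferrin and selenite for ID8 cells and names no separate medium for GO2. Each line is 1 selected or parental population, and 2 one-color arrays were hybridized per line. No source used here states whether the 2 arrays of a line came from separate cultures, so p-values measure the spread between these arrays, which may be technical. The comparison asks which serpin transcripts differ between the parental cells and the cells selected in the omentum.

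Levels are log2 intensities scaled to the 75th percentile of the array, so 0 is the intensity at that percentile and each unit is a doubling. For ID8G this percentile stood at intensities of 961 and 951, and for GO2 at 917 and 898. Of all probes, 27502 to 28841 per array were well above background, the call that the scanner software makes for each spot. A probe was tested if 1 or both lines had it well above background on each of their arrays. It was called if its limma adjusted p-value, with Benjamini-Hochberg adjustment over all 28368 tested probes, was below 0.05 and the lines differed by at least 2-fold. Where a line had a probe well above background on neither array, its level is only an upper limit, and "at least" marks the resulting minimum fold. All 4 arrays lay on 1 slide. No serpin spot was saturated or marked as an outlier. Probes bind with different strength, so no level of one probe is set against that of another. In RNA from a whole culture, fewer cells of one kind and less RNA per cell cannot be told apart.

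The ovarian surface identity of the lines was examined first. Of 13 mesothelial and ovarian surface markers on the array, 12 were tested, among them the keratins Krt8 and Krt18 and the transcription factor Wt1. These 3 had signal on every array. Of the list, 1 marker was called higher and 1 lower in GO2 by limma, with 4 higher and 4 lower at an unadjusted p below 0.05. Among the 13215 named genes tested, 6.35% had a probe called higher and 4.41% a probe called lower. At an unadjusted p below 0.05, with no fold required, these shares were 27.8% and 31.3%. Of 11 epithelial markers, 8 were tested and limma called 0 higher and 2 lower, with 0 higher and 6 lower at an unadjusted p below 0.05. Krt19 was 3.17-fold lower in GO2 and the tight junction gene Cldn3 5.21-fold lower. Krt8, Krt18 and Krt19 stand in both lists, and Krt19 is also the ovarian surface marker called lower. Krt8 and Krt18 differed by −0.57 and −0.83 (limma adjusted p = 0.00399 and 0.00165), which is below 2-fold. Epcam, an adhesion molecule of many epithelia, was well above background on no array. Of 14 macrophage markers on the array, 8 were likewise well above background on none, among them Ptprc (the gene for CD45), Adgre1 and Lyz2. Another 5 had signal on all 4 arrays at 1 probe or more, namely Cd14, Cd68, Csf1r, Fcer1g and Itgam. Limma called 0 of the 6 macrophage markers tested. At an unadjusted p below 0.05, 0 of them were higher and 3 lower in GO2.

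Few serpins had a signal in either line. Of the 73 probes, 16 were well above background on all 4 arrays, 13 on 1 to 3 arrays and 44 on no array. The share with no signal was 60.3% for serpin probes and 44.2% for all probes. The 29 probes with any signal stood for 27 genes, and 34 genes had none. The intensities of the silent probes lay between 8.67 and 45.2. Antithrombin (Serpinc1), heparin cofactor II (Serpind1) and the plasmin inhibitor Serpinf2 were each represented by 1 probe without signal, and clades C, D and F (Serpinf1 left out) therefore had no measured member. Serpine3 and Serpini2 were silent as well. In clade A, 21 of 31 probes were silent, including those for Serpina5 (protein C inhibitor), Serpina7 (a thyroid hormone carrier), Serpina10 and Serpina12. In clade B, 17 of 31 were silent, including all of Serpinb3a to Serpinb3d, Serpinb7, Serpinb10, Serpinb12, Serpinb13 and Serpinb9b to Serpinb9g.

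**Figure D1:**
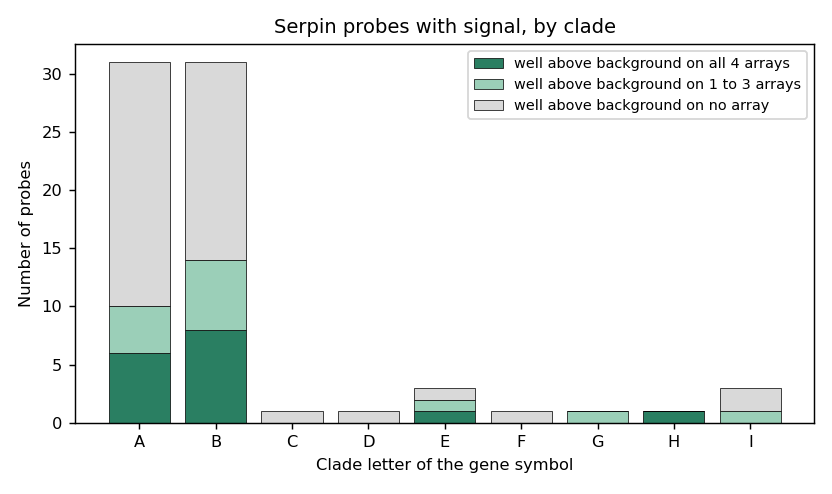
Number of serpin probes by clade letter, with each bar split by whether the probe was well above background on all 4 arrays, on 1 to 3 or on none. Clades A and B have 31 probes each, of which 6 and 8 had signal on all 4 arrays, and clades C, D and F have 1 silent probe each.

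A minority of the tested serpin probes were called, and most of the called differences were small or rested on faint signals. Another 4 probes, with signal on all 4 arrays, had a limma adjusted p below 0.05 but differed by less than 2-fold. Of the 23 probes tested, 5 were called higher in GO2 (Serpinb1a, Serpinb1c, Serpini1, Serpine2 and Serpinh1) and 3 were called lower, among them Serpinb11 and Serpina3m. Over all tested probes, 4.44% were called higher, 3.43% lower and 7.87% in either direction. The serpin count is not a fair match to these shares, because 6 of the 8 called probes entered the test through 1 line only and such a probe tends to differ. Of the 7 serpin probes tested without signal on all 4 arrays, 4 were called higher, 2 lower and 1 was not called. Of the 16 with signal on all 4 arrays, 1 was called higher, 1 lower and 14 were not, against 2.49% called higher, 2.4% lower and 4.89% in either direction among all 26020 such probes. The median difference of these 16 was −0.0042, and their median absolute difference was 0.25. For all probes of this kind these medians were −0.04 and 0.19. The arrays of the lines did not overlap for 16 of the 23 tested serpin probes, against 74% of all tested probes. Replicate arrays differed by a median of 0.10 in ID8G and 0.12 in GO2 over the serpin probes, and by 0.08 in both over all probes.

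**Figure D2:**
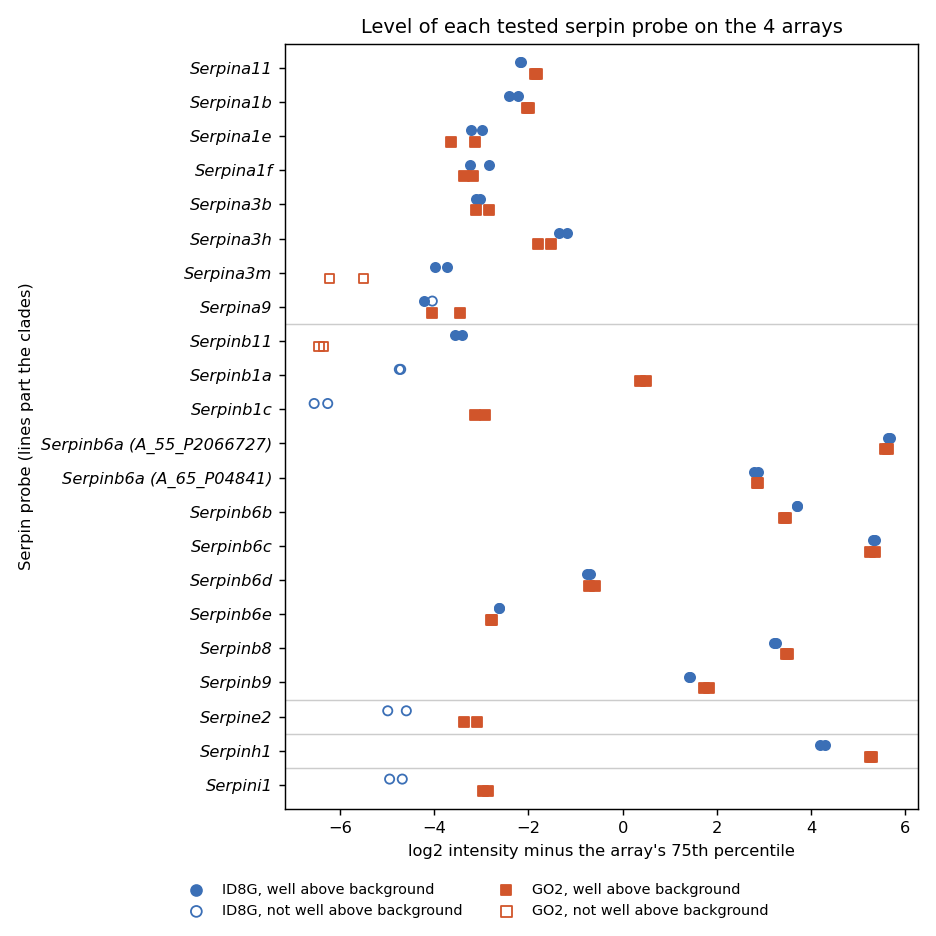
Level of the tested serpin probes described, on each array (x axis, log2 intensity scaled to the 75th percentile; circles, ID8G; squares, GO2; open symbols, not well above background). Serpinb1a lies at −4.74 and −4.71 in ID8G and at 0.49 and 0.37 in GO2, whereas each Serpinb6a probe lies at nearly the same level in both lines.

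By clade, the 8 tested probes of clade A had a median difference of −0.06, with 0 called higher and 1 lower. The 11 tested probes of clade B had a median of 0.03, with 2 called higher and 1 lower. The single tested probes of clades H and I were both called higher. All called probes of clades A, B and I had signal in 1 line only, and such probes tend to differ. Over all tested probes, 4.44% were called higher and 3.43% lower. The median over all 23 tested serpin probes was 0.07, beside −0.04 for all probes. For the 16 with signal on all 4 arrays it was −0.0042, beside −0.04 for all such probes. Called and uncalled genes lay side by side in the genome. In the order of RefSeq genes on GRCm38.p6, chromosome 13 carries a run of 17 Serpinb genes. Of these, 15 were on the array, 8 were tested and 2 were called, both higher. Serpinb1a and Serpinb1c lie in this run next to Serpinb6b and Serpinb9, whose differences were below 2-fold. A run of 12 Serpinb genes on chromosome 1 had 2 tested genes, of which Serpinb11 was lower and Serpinb8 was not called. The run of 28 Serpina genes on chromosome 12 had 23 on the array, 8 tested and 1 called, which was lower. For all named genes tested, 6.35% had a probe called higher and 4.41% a probe called lower.

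Serpinb1a showed the largest difference of the tested serpin probes. It encodes an inhibitor of neutrophil elastase and related neutrophil proteases, kept in the cytoplasm. Its level was −4.74 and −4.71 in ID8G and 0.49 and 0.37 in GO2. In intensities, these were 36.0 and 36.3 in ID8G, not well above background, and 1284 and 1159 in GO2. Both GO2 arrays thus lay far above both ID8G arrays, and Serpinb1a was at least 24.5-fold higher in GO2 (log2 difference 5.15, SE 0.06, limma adjusted p = 0.000195). The difference remained called when any single array was left out, with values from 5.09 to 5.21.

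The paralog Serpinb1c, a neighbor of Serpinb1a on chromosome 13, changed in the same direction. One of its 2 probes read −6.26 and −6.55 in ID8G and −2.93 and −3.13 in GO2. Intensities were 12.5 and 10.2 against 120 and 103, and only the GO2 values were well above background. This gave a lower bound of 2.23-fold (log2 difference 3.37, SE 0.13, limma adjusted p = 0.000539). The other Serpinb1c probe was silent on all 4 arrays, as was the probe for Serpinb1b. Genes of the Serpinb1 group are similar in sequence, so the share of the Serpinb1c signal that came from Serpinb1a RNA was not tested.

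The known targets of Serpinb1a were mostly not measured. Among the neutrophil proteases, cathepsin G (Ctsg) and proteinase 3 (Prtn3) were silent, and elastase (Elane) was at −0.02 and 0.05 in ID8G and −0.13 and −0.07 in GO2, which was not called. The list of proteases on which serpins act had 48 genes on the array and 15 tested, with 2 called higher, 1 lower and 12 not called. The median of its tested probes was −0.11. At an unadjusted p below 0.05 with limma, 3 of its genes were higher and 5 lower. Among all named genes tested, 6.35% were called higher and 4.41% lower. At the unadjusted threshold these shares were 27.8% and 31.3%. The inflammatory caspase Casp1 was higher in GO2 by at least 35.8-fold, from levels of −6.17 and −6.47 without signal to 1.01 and 0.94. The secreted protease Prss23 was 3.54-fold higher (levels −0.36 and −0.51 against 1.45 and 1.32, limma adjusted p = 0.000718). The mast cell chymase Cma1 was called lower (levels −1.81 and −1.82 against −3.83 and −4.24, limma adjusted p = 0.00188). Only 1 of the 2 GO2 arrays was well above background for it, so no fold is given.

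The other intracellular serpins with signal on all 4 arrays differed little between the lines. Serpinb6a, an inhibitor of cathepsin G and of trypsin-like proteases, was read by 2 probes. One gave 5.64 and 5.67 in ID8G and 5.63 and 5.57 in GO2 (difference −0.05, 95% CI −0.20 to 0.10), and the other gave 2.88 and 2.78 against 2.85 and 2.87 (difference 0.03, 95% CI −0.13 to 0.20). The intervals keep any difference in Serpinb6a well under the 2-fold threshold. Over the 6 probes of Serpinb6a to Serpinb6e, differences ran from −0.25 to 0.07 and all 95% intervals lay between −0.39 and 0.26. The lowest was Serpinb6b, at 3.69 on both ID8G arrays and 3.46 and 3.42 in GO2 (limma adjusted p = 0.0278). The genes of this group arose by duplication, and a probe for one may also bind RNA of another.

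Serpinb9 and Serpinb8 were slightly higher in GO2 without reaching 2-fold. Serpinb9 inhibits granzyme B, the protease with which cytotoxic lymphocytes kill target cells. It measured 1.43 and 1.40 in ID8G and 1.84 and 1.72 in GO2 (difference 0.36, SE 0.06, limma adjusted p = 0.0199). Granzyme B itself (Gzmb) was silent. Serpinb8, an inhibitor of furin, was 3.22 and 3.26 in ID8G and 3.47 and 3.51 in GO2 (difference 0.25, SE 0.05, limma adjusted p = 0.0301). Furin had a difference of −0.09 and was not called. Scaling the arrays on spike-in transcripts instead shifted all differences down, and Serpinb8 then differed by 0.06 and Serpinb9 by 0.18. The second Serpinb8 probe had signal on 1 ID8G array only and was not tested.

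Serpinb11 went in the opposite direction. It belongs to the intracellular clade and has been described in epithelia. Its levels were −3.42 and −3.56 in ID8G and −6.34 and −6.44 in GO2. Intensities fell from 89.8 and 80.7 to 11.3 and 10.3, and the GO2 values were not well above background. Serpinb11 was at least 1.80-fold lower in GO2 (log2 difference −2.91, SE 0.08, limma adjusted p = 0.000298). The signal in ID8G was itself faint, and with every dim value raised to the detection floor of its array the difference was −0.85 and no longer called. With the normexp background correction it was −0.75 and not called either. The epithelial markers were lower alongside it, with 2 of 8 tested called lower and 0 higher by limma. Their summed intensity was 384232 and 368523 in ID8G and 184742 and 183712 in GO2, and Epcam, Krt7 and Cldn4 were silent on all arrays. Nearly all of this sum came from the keratins Krt8, Krt18 and Krt19, so it says little of the other markers. At an unadjusted p below 0.05 with limma, 6 of the 8 were lower and 0 higher, whereas Cldn7 differed by 0.0055. The part of the epithelial markers in the Serpinb11 result was not tested.

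**Figure D3:**
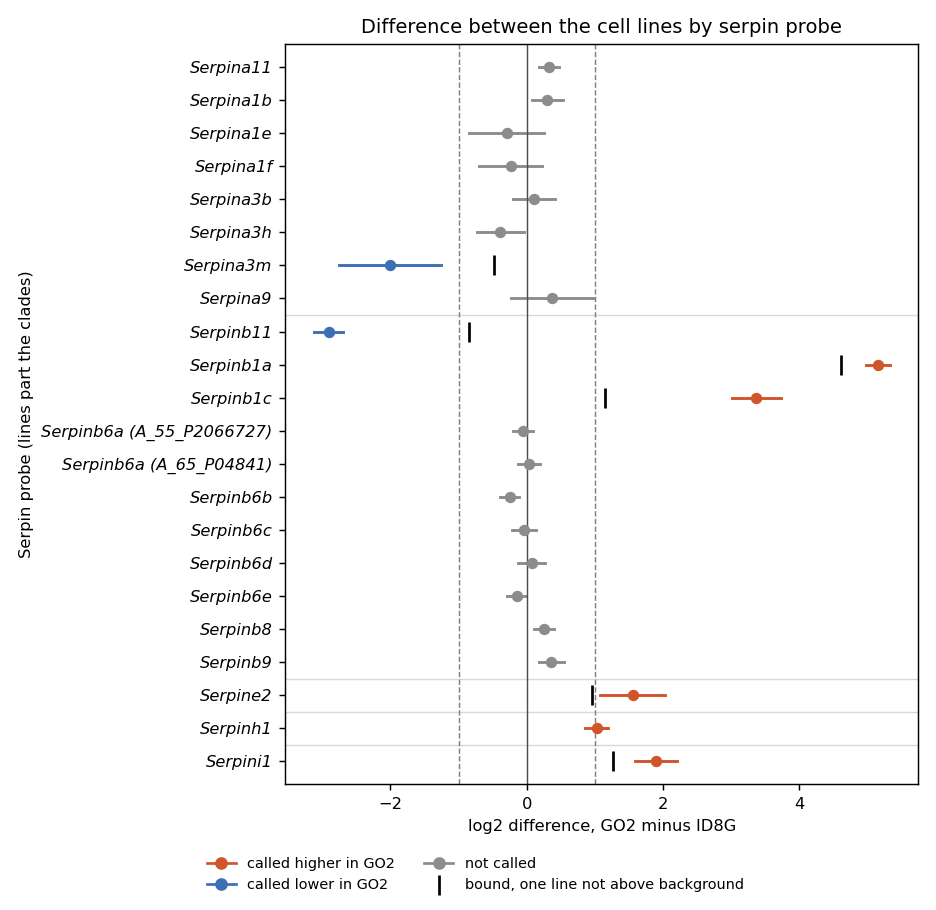
Difference between the lines for the tested serpin probes described (x axis, log2 GO2 minus ID8G; bars, 95% confidence interval over 2 arrays per line; vertical ticks, bound where one line was not well above background; dashed lines, 2-fold). Serpinb1a, Serpinb1c, Serpini1, Serpine2 and Serpinh1 lie to the right, and Serpinb11 and Serpina3m lie to the left.

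Serpine2 encodes protease nexin 1, which inhibits thrombin as well as plasminogen activators at the cell surface. It was −4.99 and −4.59 in ID8G, not well above background, and −3.10 and −3.37 in GO2. Intensities were 30.3 and 39.5 against 107 and 87.0. Serpine2 was at least 1.94-fold higher in GO2 (log2 difference 1.56, SE 0.17, limma adjusted p = 0.00642). Its call was lost with dim values raised to the detection floor (0.95) and with the normexp background correction (0.71).

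Genes of plasminogen activation, among them the activators that Serpine2 and Serpini1 inhibit, were then examined. Those named here were chosen after their values were seen. The tissue plasminogen activator tPA (Plat) was 0.82 and 0.85 in ID8G and −0.10 and −0.17 in GO2. The log2 difference of −0.97 had a limma adjusted p of 0.00129 but stayed just under the 2-fold threshold. One probe for the urokinase-type activator uPA (Plau) had levels of −2.01 and −1.10 in ID8G and −1.63 and −1.82 in GO2, with the GO2 arrays lying between those of ID8G, and the other was silent. The uPA receptor Plaur was 2.49 and 2.47 against 1.95 and 1.92 (difference −0.54, limma adjusted p = 0.00406), which is below 2-fold. Plasminogen (Plg) and thrombin (F2) were silent in both lines.

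Genes for cofactors and clearance receptors of serpins were listed together with genes that make heparan sulfate or assist these receptors. LDL receptor relatives such as Lrp1 and Vldlr take up protease-serpin complexes, and heparan sulfate proteoglycans act as cofactors. Of 26 such genes on the array, 22 were tested, 7 were called higher and 0 lower by limma. At an unadjusted p below 0.05, 10 were higher and 5 lower, and with the normexp background correction 4 were called higher. Among all named genes tested, 6.35% were called higher and 4.41% lower, and 27.8% were higher and 31.3% lower at the unadjusted threshold. The median of its tested probes was 0.10. Vldlr was 4.84-fold higher in GO2 at a probe with signal on all 4 arrays (−0.49 and −0.51 against 1.77 and 1.77), and its second probe gave a bound of 4.34-fold. The syndecan Sdc2 was 3.47-fold higher (−0.78 and −0.80 against 0.98 and 1.03). Lrp2 was called at 1 of 3 probes, with faint GO2 levels of −4.18 and −4.20. Lrp1, named after its values were seen, was 2.04-fold higher (0.82 and 0.71 against 1.75 and 1.84, limma adjusted p = 0.0018).

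Serpinh1 was the only serpin called higher among those with signal on all 4 arrays. It encodes Hsp47, a serpin without inhibitory activity that binds procollagen in the endoplasmic reticulum and helps the triple helix fold. The levels were 4.20 and 4.30 in ID8G and 5.25 and 5.30 in GO2, from intensities of 17630 and 18742 against 34932 and 35439. Serpinh1 was 2.04-fold higher in GO2 (log2 difference 1.03, SE 0.06, limma adjusted p = 0.00146). The 95% interval of 0.85 to 1.20 spans the 2-fold threshold, and the call was lost without ID8G replicate 1 (0.98), with spike-in scaling (0.84) and with the normexp background correction (0.99). The direction was the same in each.

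Of 26 genes for collagen folding and modification in the endoplasmic reticulum, all were tested, 5 were called higher in GO2 and 0 lower by limma. At an unadjusted p below 0.05, 18 were higher and 1 lower, where 27.8% of all named genes tested were higher and 31.3% lower. Of all named genes tested, 6.35% were called higher and 4.41% lower. The median difference over the probes of the 26 genes was 0.35, beside −0.04 for all probes. Creb3l1, a membrane-bound transcription factor of secretory and matrix genes, was 10.9-fold higher (−2.20 and −2.35 against 1.18 and 1.16, limma adjusted p = 0.000223). The prolyl 3-hydroxylase P3h2 was at least 4.25-fold higher, and the retrieval receptor Kdelr3 was 4.41-fold higher (−0.87 and −0.76 against 1.39 and 1.28). The fibroblast markers moved alongside Serpinh1. Of 13, 6 were called higher and 0 lower by limma, with 6 and 1 at an unadjusted p below 0.05, including Col1a1 at 25.6-fold and 26.2-fold with its 2 probes. Their summed intensity was 62774 and 65439 in ID8G and 160606 and 162276 in GO2, whereas Dpt, Fap, Lum, Pi16, Postn and Thy1 were silent on all arrays. Their part in the Serpinh1 result was not tested.

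Serpini1 encodes neuroserpin, a secreted inhibitor of tPA best known from neurons. One probe read −4.95 and −4.68 in ID8G, not well above background, and −2.97 and −2.85 in GO2. Intensities were 31.2 and 37.2 against 117 and 124. Serpini1 was at least 2.42-fold higher in GO2 (log2 difference 1.90, SE 0.11, limma adjusted p = 0.00136). The second probe of the gene was silent on all 4 arrays, so the increase rests on 1 probe. With the normexp background correction the difference was 0.90 and not called.

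The promoters of called serpins were read from RefSeq annotation of GRCm38.p6, which had an entry for 50 of the 61 genes and for 5 of the 8 called ones. Serpinb1a had no entry. The 250 bases before the start of Serpinh1, Serpine2 and Serpinb11 are printed 5′ to 3′ on the strand of the gene, as the first 2 rose and the last fell in GO2 and each has 1 annotated start. Capitals mark matches, on either strand, to 6 motifs: TATAAA, the GC box GGGCGG, the paired heat shock unit GAANNTTC, the Smad box CAGACA, the E-box CACGTG and the AP-1 site TGANTCA. None of these patterns contains another.
Serpinh1: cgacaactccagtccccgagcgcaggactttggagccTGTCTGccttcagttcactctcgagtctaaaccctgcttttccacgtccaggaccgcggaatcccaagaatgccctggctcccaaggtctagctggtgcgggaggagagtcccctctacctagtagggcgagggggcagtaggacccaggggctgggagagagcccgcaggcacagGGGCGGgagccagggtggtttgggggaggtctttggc
Serpine2: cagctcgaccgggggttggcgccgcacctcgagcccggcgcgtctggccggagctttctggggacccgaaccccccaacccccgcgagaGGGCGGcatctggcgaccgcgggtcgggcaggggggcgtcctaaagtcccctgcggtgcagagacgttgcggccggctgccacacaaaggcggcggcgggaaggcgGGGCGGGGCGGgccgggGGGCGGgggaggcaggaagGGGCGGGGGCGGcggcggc
Serpinb11: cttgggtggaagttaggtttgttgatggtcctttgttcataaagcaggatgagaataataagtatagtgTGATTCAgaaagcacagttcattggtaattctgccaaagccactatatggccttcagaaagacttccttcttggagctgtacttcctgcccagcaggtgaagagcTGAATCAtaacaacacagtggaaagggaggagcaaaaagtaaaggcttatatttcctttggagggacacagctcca

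The Serpinh1 stretch is chr7:99353240-99353489 on the minus strand. It held 1 GC box, 37 bases before the start, and 1 Smad box on the opposite strand, 213 bases before it. No paired heat shock unit was found in this window. The Serpine2 stretch is chr1:79858666-79858915 on the minus strand, and it held 6 GC boxes, some of which overlap, the farthest 161 bases and the nearest 13 bases before the start. The Serpinb11 stretch is chr1:107362064-107362313 on the plus strand, with 2 AP-1 sites 181 and 76 bases before the start. Over 32851 mouse promoters of the same length, 32.7% held a GC box, 17.1% a Smad box, 6.75% an AP-1 site, 12.4% the TATA motif, 6.69% the heat shock unit and 6.02% the E-box. A match describes the letters of the window and is not evidence of binding.

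The secreted serpins of clade A were faint in both lines, and 1 of the 8 tested was called. Serpina3m, one of the mouse genes related to human antichymotrypsin, was −3.73 and −3.98 in ID8G and −5.50 and −6.22 in GO2. Intensities were 72.1 and 60.4 in ID8G and 20.3 and 12 in GO2, where neither was well above background. It was at least 1.39-fold lower in GO2 (log2 difference −2.0, SE 0.27, limma adjusted p = 0.0102). This call was the least firm of the 8. It was lost without ID8G replicate 1 (limma adjusted p = 0.0670), without a filter on dim probes (limma adjusted p = 0.0560), with a floor (difference −0.48) and with the normexp background correction (difference −0.53).

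The related genes Serpina3h and Serpina3b had signal on all 4 arrays and were not called. Serpina3h was −1.17 and −1.36 in ID8G and −1.79 and −1.52 in GO2 (difference −0.39, 95% CI −0.73 to −0.04, limma adjusted p = 0.0807). Serpina3b differed by 0.11 (95% CI −0.20 to 0.41). The antitrypsin genes Serpina1b and Serpina1e differed by 0.30 (95% CI 0.08 to 0.53) and −0.29 (95% CI −0.84 to 0.26). The other Serpina1e probe was silent on all 4 arrays. Serpina1f differed by −0.23 (95% CI −0.69 to 0.23). Serpina11 was −2.17 and −2.15 in ID8G and −1.86 and −1.81 in GO2, a difference of 0.32 that was below 2-fold (limma adjusted p = 0.0157). Serpina9, named after its values were seen, had signal on 3 arrays and differed by 0.37 (95% CI −0.23 to 0.98). Its other probe was silent on all 4 arrays. The Serpina1 and Serpina3 genes are close copies of each other, and a probe may bind RNA of several.

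Other proteins that the liver secretes with clade A serpins were compared. Of 15 on the array, 4 were tested, and limma called 0 higher and 2 lower in GO2 (1 and 3 at an unadjusted p below 0.05). Among all named genes tested, 6.35% were called higher and 4.41% lower (27.8% and 31.3% at the unadjusted threshold). Albumin (Alb), Apoa1, Apob and Ttr were silent on all 4 arrays. Haptoglobin (Hp) was 3.51-fold lower (4.14 and 4.12 against 2.30 and 2.33), and kininogen (Kng1) was 4.19-fold lower at the probe with signal on all arrays (−0.27 and −0.28 against −2.40 and −2.29).

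Finally, 6 serpin probes had signal on a single array and were not tested. Serpinb2 reached 68.4 on GO2 replicate 2 and had no signal on the other arrays. Serpinb5 (maspin) reached 77.9 on GO2 replicate 1, with 15 on the other GO2 array. Serpina3n reached 44.4 on GO2 replicate 2, whereas Serpina6, the corticosteroid carrier, reached 95.3 on ID8G replicate 1 with 25.8 on the second. The second Serpinb8 probe was 173 on ID8G replicate 2 and 18.0 on replicate 1. Serping1, the C1 inhibitor of the complement system, was 66.7 and 40.1 in ID8G and 42.7 and 25.9 in GO2. In 5 of these 6 probes the replicate arrays of a line differed more than 3-fold, so no difference between the lines is given for them.

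**Figure D4:**
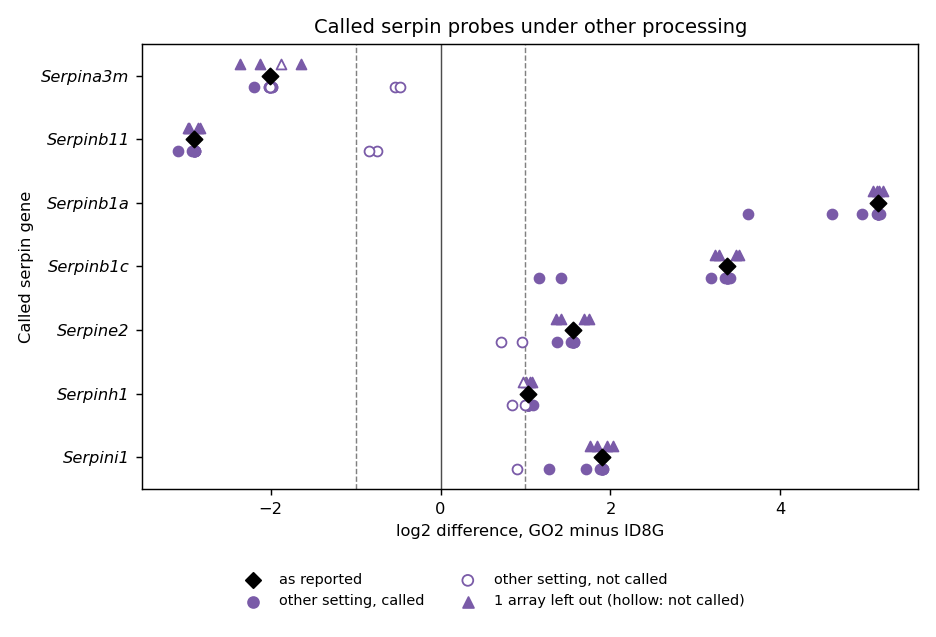
Log2 difference, GO2 minus ID8G, of the called serpin probes described, as reported (diamonds), under other processing settings (circles) and with 1 array left out (triangles); open symbols were not called, and the t-test of the study's methods is left out because it has the reported value. Serpinb1a and Serpinb1c stayed past the 2-fold lines in every setting drawn, whereas Serpina3m, Serpinb11, Serpine2, Serpini1 and Serpinh1 crossed them in some.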

How the data were processed

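Total RNA of 2 ID8G and 2 GO2 samples was labeled with Cy3 and hybridized to Agilent one-color arrays. The authors deposited the scanner output of Feature Extraction 11.5.1.1, in which gProcessedSignal is a background-corrected intensity per spot, and a value table in log2. Comparison of that table with the scanner files showed each deposited log2 value to be the log2 signal minus the 75th percentile over probes and minus the median of the probe over the 4 arrays (largest gap 0.0012 for probes of 1 spot). The medians of its columns were 0.10, −0.05, 0.04 and −0.05.

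Here, log2 gProcessedSignal minus the 75th percentile over all noncontrol spots of its array was used. Outlier spots, 132 to 195 per array, were left out, and spots of a probe were averaged. Of 56605 probes, 32994 were named through RefSeq accessions (GRCm38.p6). The lines were compared with limma 3.58.1 in R 4.3.3 over 28368 tested probes. In simulated data of 28344 probes with 200 changed, 187 were recovered (93.5%) and 1 unchanged probe was called. Recovery of differences near the 2-fold threshold was not tested separately. With 2 arrays per line, the number of arrays limits the precision, and an exact permutation test cannot give a two-sided p-value below 0.333. The bound for a line without signal used, per array, the higher of the lowest signal well above background and the probe's own value.

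The serpins, the gene lists and the tests were chosen with earlier results of these data known. Named serpins were those called or with signal on all 4 arrays. From each list, at most the 3 largest called increases and the 3 largest called decreases were named, with exceptions stated. The values of 1 gene are not reported here, although it stands in the counts. Other background corrections, scalings, filters, floors and tests, a replicate block and the omission of each array were tried. The arrays hold no mean signal, so normexp with an offset of 50 was applied to the median signal.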

Additional observations from a re-analysis of the deposited data

How the results depend on the processing

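With 2 arrays per line and many serpins near background, the size of faint differences depended on how dim signals were treated. The normexp background correction left 2 serpins called higher and 1 lower (all probes, 806 and 524), and requiring signal on all 4 arrays left 1 and 1 (all probes, 651 and 626, refitted on those probes), with a serpin median of −0.0042. A floor left 1 serpin called lower. The study's methods give a t-test with Welch's correction for comparisons of 2 groups but name no test for the arrays. Applied to the arrays here, that t-test called 0 serpins and 0 of all probes in either direction after adjustment, nor any gene of the lists. At an unadjusted p below 0.05 and at least 2-fold it gave 5 serpins higher and 2 lower and 985 and 747 of all probes, against 5 and 3 and 1299 and 1011 with limma. Without the fold it gave 7 and 3 serpins, against 9 and 6 with limma. The cause was not tested. Of 368 values of 22 single probes under these settings, 348 stayed on the same side of the calling threshold, 20 lost the call, 8 of them by the t-test, and 0 reversed a call. In 9 values the sign changed, all of 5 uncalled probes of Serpina3b, Serpinb6a, Serpinb6c and Serpinb6d that differed by 0.11 or less as reported.

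The median difference of tested serpins was −0.12 with spike-in scaling, which moved the median of all probes from −0.04 to −0.23, and −0.075 with no filter on dim probes. Under spike-in scaling, 1107 of all probes were called higher and 1428 lower, against 1260 and 972. Over the omission of each array, serpins called higher numbered 4 to 7 and lower 3 to 4, and the median ran from −0.017 (without ID8G replicate 2) to 0.24 (without GO2 replicate 1). The fit then took the spread of the single array from the line with 2. The added calls were of probes with signal on a single array: Serpinb2 and Serpina3n without GO2 replicate 1, Serpinb5 without GO2 replicate 2, Serpina6 without ID8G replicate 2 and a Serpinb8 probe without ID8G replicate 1. Replicate numbers did not pair the arrays (correlation of deviations 0.03), and with the replicate block 5 serpins were called higher and 3 lower, and 1238 and 963 of all probes. A percentile over probes in place of spots, chosen after seeing the data, gave 5 and 3. The slide as a block was not run, since there was 1 slide.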

Other observations

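Protease inhibitors outside the serpin family also differed between the lines in both directions. Of 30 such genes on the array, 18 were tested, 3 were called higher in GO2 and 4 lower, and the median of their tested probes was 0.03. At an unadjusted p below 0.05 with limma, 6 of them were higher and 5 lower. Among all named genes tested, 6.35% were called higher and 4.41% lower. At the unadjusted threshold these shares were 27.8% and 31.3%. Timp3, a matrix-bound inhibitor of metalloproteinases, was 1.34 and 1.47 in ID8G and 4.24 and 4.15 in GO2, a 6.93-fold increase (limma adjusted p = 0.000298), and its second probe gave 6.68-fold. The secreted cystatin Cst6 was 4.49-fold higher (−3.35 and −3.47 against −1.18 and −1.30, limma adjusted p = 0.000451). Spink2, a Kazal-type inhibitor, was at least 4.51-fold higher.

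The decreases included Wfdc2 (HE4, a secreted protein used as an ovarian cancer marker), which was at least 3.59-fold lower in GO2, with levels of −2.78 and −2.21 against −6.13 and −5.39. The broad inhibitor Pzp was at least 3.18-fold lower at one probe, and its other probe was silent. Itih2, a heavy chain of inter-alpha-trypsin inhibitor, was 4.36-fold lower (−1.72 and −1.81 against −3.99 and −3.79, limma adjusted p = 0.000627).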
